A study of Mus musculus with 12 samples.

Results

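The genes described here are the NR4A nuclear receptors Nr4a1, Nr4a2 and Nr4a3, the EGR zinc finger factors Egr1, Egr2 and Egr3, and the EGR corepressor Nab2, measured in mouse CD8 T cells that did or did not carry a Batf3 vector. They were chosen by name as early targets of T cell receptor signals, and all 7 were found among the 55335 genes of the count table. All 7 also passed the filter on low counts, which left 15702 genes. RNA came from splenic CD8 T cells of OT-I mice on a C57BL/6 background, whose T cell receptor transgene recognises an ovalbumin peptide. Cells were transduced with a retrovirus that carried Batf3 or with the empty vector as control, and transduced cells were sorted by flow cytometry. The 4 groups were Batf3 stimulated, control stimulated, Batf3 non-stimulated and control non-stimulated, with 3 libraries each. Stimulated cells spent 6 h with anti-CD3e bound to the plate and anti-CD28, 1 µg/ml of each antibody, and non-stimulated cells spent 6 h in IL-15 at 100 ng/ml. The labels name IL-15 for the non-stimulated cultures alone, so that cytokine and the antibodies cannot be told apart in any comparison of stimulated with non-stimulated cells. The labels call the replicates technical, so every SD, standard error and p-value measures the spread between such libraries and not between mice or transductions.

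Engagement of the T cell receptor activates ERK and calcineurin, and the transcription factors downstream of them switch on NR4A and EGR genes within minutes to hours without new protein synthesis. NR4A proteins are orphan nuclear receptors that act without a known physiological ligand and are linked in CD8 T cells to tolerance and exhaustion, while Nr4a1 is widely used as a reporter of receptor signal strength. EGR proteins bind GC-rich DNA through zinc fingers; EGR2 and EGR3 are linked to anergy and negative feedback in T cells, and NAB2 binds EGR proteins and represses their activity. BATF3, the vector's product, is a small basic leucine zipper protein that pairs with JUN proteins.

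Promoter sequences of the members are shown because the NR4A genes shared a feature there that their selection did not use. Of the 7 members, 5 had an entry among the RefSeq promoter windows (GRCm38.p6, 250 bases before to 50 after each annotated start, 300 bases in all), and these 5 had 9 windows. Egr1 and Egr3 had none. Where a gene had several windows, the window with most motif matches is printed. Capitals mark the letters TGACG, the core of a cAMP response element, or its reverse complement, in all 4 sequences. Capitals also mark GCGNGGGCG, the EGR consensus, and the CArG box bound by SRF, on either strand. The windows were Nr4a1 at chr15:101266596-101266895 on the plus strand, Nr4a2 at chr2:57123954-57124253 on the minus strand, Nr4a3 at chr4:48045055-48045354 on the plus strand and Egr2 at chr10:67537619-67537918 on the plus strand. Each is written 5′ to 3′ on the strand of its gene.
Nr4a1: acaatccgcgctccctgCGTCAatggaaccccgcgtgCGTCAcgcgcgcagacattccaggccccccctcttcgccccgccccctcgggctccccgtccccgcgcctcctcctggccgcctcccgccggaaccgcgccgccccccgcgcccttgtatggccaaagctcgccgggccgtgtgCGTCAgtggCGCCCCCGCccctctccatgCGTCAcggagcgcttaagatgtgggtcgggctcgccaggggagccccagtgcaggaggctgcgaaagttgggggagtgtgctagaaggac
Nr4a2: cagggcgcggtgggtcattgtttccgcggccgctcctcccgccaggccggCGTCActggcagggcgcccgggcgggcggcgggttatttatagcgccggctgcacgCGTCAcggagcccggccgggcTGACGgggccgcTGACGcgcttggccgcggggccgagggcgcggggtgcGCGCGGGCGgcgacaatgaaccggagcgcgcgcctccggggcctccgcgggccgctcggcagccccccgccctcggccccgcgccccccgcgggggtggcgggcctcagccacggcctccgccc
Nr4a3: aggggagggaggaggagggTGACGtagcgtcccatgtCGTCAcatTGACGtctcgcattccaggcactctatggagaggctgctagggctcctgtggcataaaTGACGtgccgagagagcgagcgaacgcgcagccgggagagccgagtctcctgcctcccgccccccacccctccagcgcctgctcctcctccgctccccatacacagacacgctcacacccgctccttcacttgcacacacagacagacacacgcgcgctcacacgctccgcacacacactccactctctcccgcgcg
Egr2: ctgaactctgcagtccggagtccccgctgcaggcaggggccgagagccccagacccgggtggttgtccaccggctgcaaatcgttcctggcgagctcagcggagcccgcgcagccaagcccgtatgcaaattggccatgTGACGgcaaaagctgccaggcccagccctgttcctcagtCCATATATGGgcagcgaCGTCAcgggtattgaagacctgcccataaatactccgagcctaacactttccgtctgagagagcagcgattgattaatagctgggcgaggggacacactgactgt

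Each of the 3 NR4A windows held 4 matches to TGACG, counted on both strands with overlapping matches included. Among the 32851 promoter windows of the mouse, 20.8% held at least 1 such match and 0.231% held at least 4. The printed Egr2 window held 2 TGACG matches and 1 CArG box, and 4 of the 5 Egr2 windows held a CArG box, against 1.63% of all windows. These 4 windows belong to 1 gene and overlap in part. GCGNGGGCG occurred 1 time each in the windows of Nr4a1 and Nr4a2, against at least 1 match in 5.55% of all windows. The full palindrome TGACGTCA, found in 1.79% of all windows, and TGANTCA, the AP-1 consensus, found in 7.81%, were in none of the 9 windows. The Nab2 window at chr10:127666654-127666953 on the minus strand held none of these motifs. GC content was 72.3% for Nr4a1, 81.7% for Nr4a2, 64.7% for Nr4a3, 60.0% for the printed Egr2 window and 74.0% for Nab2, against a median of 52.7% over all windows. These counts describe letters in the printed windows, not sites of binding.

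**Figure D1:**
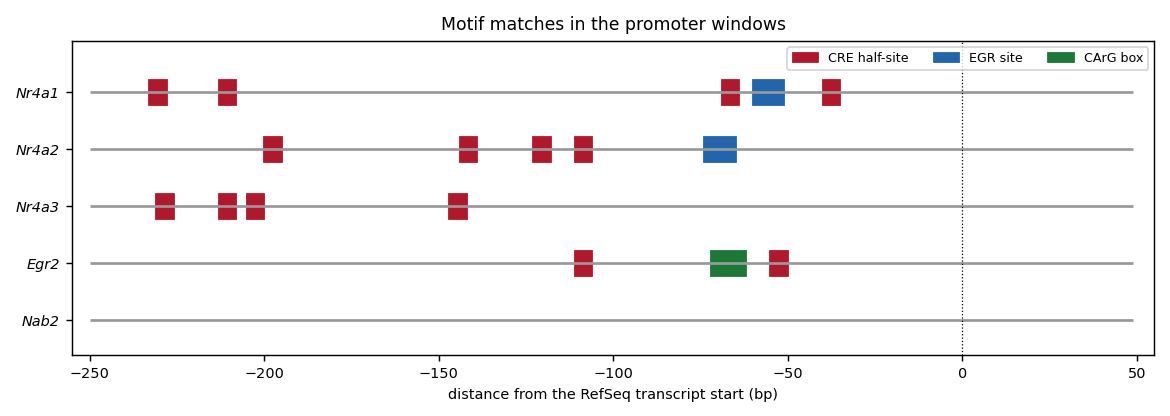
Positions of motif matches in the promoter windows of 5 members, in bases relative to the annotated start. The 3 NR4A windows hold 4 TGACG matches each, the Egr2 window holds a CArG box, and the Nab2 window holds no match.

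Total counts lay between 14211564 and 14468231 per library, so that 1 count stood for 0.0638 to 0.0762 CPM (reads of a gene per library size, after TMM scaling). Transcripts of Batf3 averaged 427 ± 11.9 CPM in Batf3 stimulated cells and 18.4 ± 0.735 CPM in control stimulated cells (SD, n = 3 each). In non-stimulated cultures they averaged 470.4 ± 3.68 CPM in Batf3 cells and 6.77 ± 0.833 CPM in control cells, so all libraries matched their vector label. All 8 CD8 T cell markers stood at 1 CPM or more in every group, with Cd8a the highest. Their summed level was 1880 to 1944 CPM in Batf3 stimulated, 1658 to 1668 in control stimulated, 2670 to 2692 in Batf3 non-stimulated and 2776 to 2830.0 in control non-stimulated cells. Ms4a1 of the B cell list, Lyz2 and S100a8 of the myeloid list, Siglech of the dendritic cell list, Ncr1 and Klra8 of the NK cell list, and Hbb-bs, Pf4 and Ppbp of the red cell and platelet list had no counts in any group. Other genes of these lists did have counts. Ighm averaged 396 CPM in Batf3 and 361 CPM in control non-stimulated cells, and Itgax 43.7 CPM in Batf3 stimulated cells. Cd68 averaged 9.09 CPM and Hba-a1 1.49 CPM in Batf3 non-stimulated cells, and Klrb1c 3.03 CPM in control non-stimulated cells. The mitochondrial share of counts was 1.64 to 2.31%.

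In stimulated cultures, Egr2 was 1.66-fold higher in Batf3 cells than in control cells, Egr1 was 1.21-fold higher and Nr4a2 was 1.12-fold higher, while Egr3 was lower. Nr4a1, Nr4a3 and Nab2 did not pass the test. Thus 3 of 7 members rose and 1 fell, where a gene was called at a Benjamini-Hochberg adjusted p under 0.05 in edgeR's quasi-likelihood test over all 15702 genes. The background in this comparison was 29.5% of genes called, 14.8% higher and 14.6% lower. The 3 EGR genes thus moved in both directions, and no member reached a 2-fold difference, which 2.45% of genes did upward and 0.834% downward.

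The level of Egr2, a zinc finger factor linked to T cell anergy, was 515, 505 and 499 CPM in the Batf3 stimulated libraries and 301, 305 and 307 CPM in the control stimulated libraries. The means were 506 ± 7.78 and 305 ± 2.97 CPM (Batf3 and control, SD, n = 3 each), and the groups were far apart. The log2 difference was 0.73 ± 0.04 (SE, 95% interval 0.66 to 0.81, adjusted p = 3.25e-29), and 6.48% of tested genes had a higher one. Egr1, the EGR factor most widely induced by growth and antigen signals, had 959, 932 and 947 CPM in Batf3 stimulated cells and 776, 785 and 789.6 CPM in control stimulated cells. No library of one vector reached the range of the other, and the log2 difference was 0.27 ± 0.03 (adjusted p = 9.36e-14). Egr3, which acts beside Egr2 in T cells, had 168, 155 and 160.1 CPM in Batf3 stimulated cells and 193, 198 and 190.2 CPM in control stimulated cells. Here every Batf3 library was below every control library, with a log2 difference of −0.27 ± 0.04 (adjusted p = 2.87e-08). In bulk RNA, fewer cells that express a gene and less of its RNA per cell cannot be told apart, and this holds for every lower level given here.

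Nr4a2, the orphan receptor also called NURR1, had 150.5, 140.0 and 152 CPM in Batf3 stimulated cells and 134, 128 and 134 CPM in control stimulated cells. The libraries did not overlap and the log2 difference was 0.16 ± 0.04 (adjusted p = 0.00138). Nr4a1, the receptor also called NUR77, had 313, 301 and 317 CPM in Batf3 stimulated cells and 316, 322 and 323 CPM in control stimulated cells. These ranges overlapped, and the interval of the log2 difference was −0.12 to 0.03 (adjusted p = 0.275). Nr4a3, or NOR1, had 639.7, 627 and 638 CPM in Batf3 stimulated cells and 653, 669 and 658 CPM in control stimulated cells. Its Batf3 libraries were all below its control libraries, yet the log2 difference of −0.06 ± 0.03 was not called (adjusted p = 0.123). Without the filter on low counts it was −0.08 and passed (adjusted p = 0.0328, with a range of 0.0328 to 0.838 over its alternatives). The corepressor Nab2 had 95.2, 91.6 and 94.9 CPM in Batf3 stimulated cells and 98.7, 92.2 and 96.0 CPM in control stimulated cells, which overlapped, with an interval of −0.12 to 0.07 (adjusted p = 0.731).

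Marker lists of other cell types moved with the vector in these cultures, in both directions. The dendritic cell list, of which 3 of 6 genes reached 1 CPM in each stimulated group with Itgax the highest, summed to 60.0 to 64.0 CPM in Batf3 stimulated cells and 35.8 to 41.1 CPM in control stimulated cells. Within it Itgax (43.7 and 17.6 CPM) and Xcr1 (7.11 and 4.39 CPM) were higher with Batf3, and Zbtb46 (11.1 and 16.1 CPM) was lower. The B cell list, nearly all of it Ighm, was lower, at 38.1 to 42.3 CPM in Batf3 stimulated and 49.5 to 53.8 CPM in control stimulated cells. The CD4 T cell list summed to 64.8 to 67.7 CPM in Batf3 stimulated cells and 24.5 to 27.0 CPM in control stimulated cells, with 2 of 3 genes at 1 CPM or more in each, and the myeloid list to 15.6 to 17.6 CPM and 10.4 to 12.7 CPM in the same groups, with 3 and 2 of 8 genes at 1 CPM or more. The difference of the CD4 list lay in Cd40lg, at 56.6 CPM in Batf3 and 16.9 CPM in control stimulated cells. Zbtb7b had 9.14 and 8.89 CPM in the same groups, and Cd4 itself only 0.321 and 0.305 CPM. The part of these lists in the differences of the 7 genes was not tested.

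**Figure D2:**
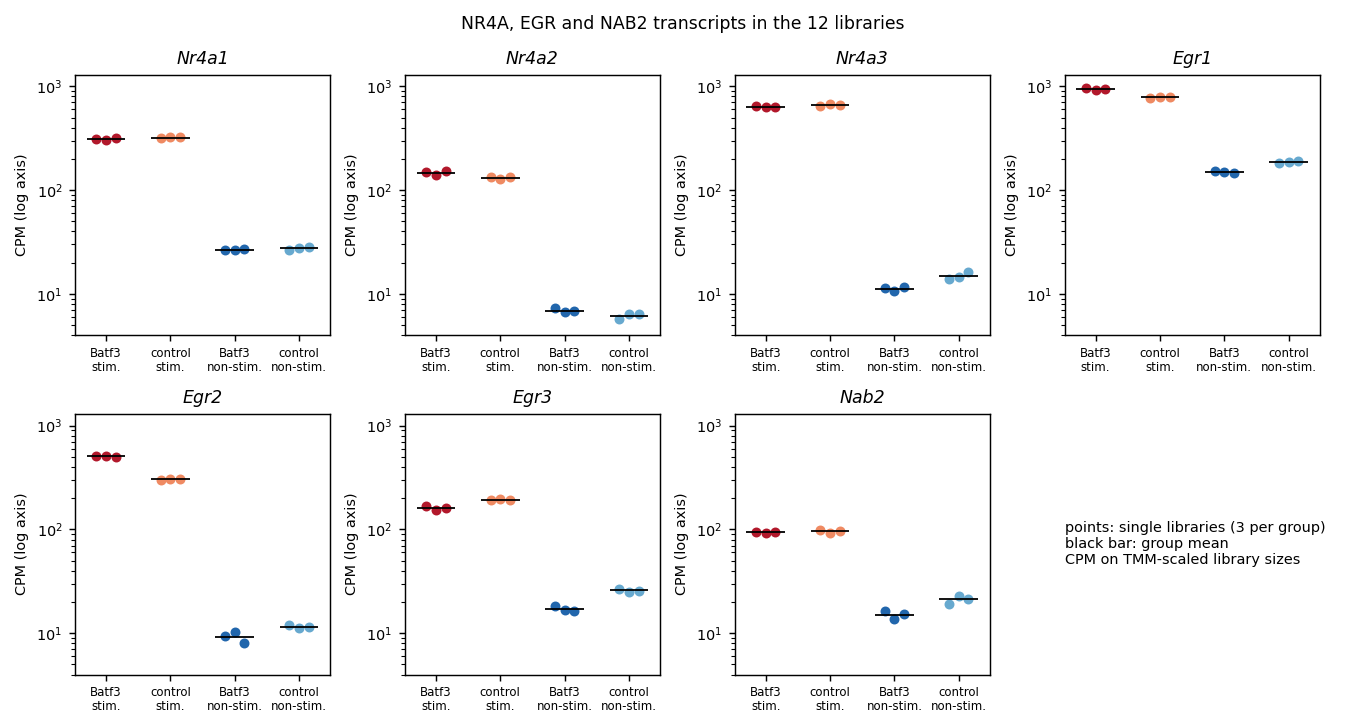
Level of each of the 7 genes in each of the 12 libraries, in CPM on a log axis, by group, with points for libraries and bars for group means. The Egr2 libraries of Batf3 stimulated cells lie between 499 and 515 CPM, above all control stimulated libraries, while the Nr4a1 libraries of the 2 stimulated groups overlap.

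In non-stimulated cultures the direction was different: 5 of 7 members were lower in Batf3 cells, none was higher, and Nr4a1 and Nr4a2 did not pass the test. The 5 were Egr3, Nab2, Nr4a3, Egr2 and Egr1, in order of size. The background here was 39.3% of genes called, 16.3% higher and 23% lower, with 2.26% at least 2-fold higher and 0.866% at least 2-fold lower. Egr1 and Egr2 therefore had opposite signs in the 2 cultures, and Egr3 was lower with Batf3 in both. The 2 comparisons share no library.

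Egr3 had the largest difference of the 7, with 18.4, 16.9 and 16.3 CPM in Batf3 non-stimulated cells and 26.8, 25.1 and 25.8 CPM in control non-stimulated cells. The log2 difference was −0.59 ± 0.07 (adjusted p = 2.84e-11), and 4.17% of tested genes had a lower one. Egr1 had 154, 150.5 and 146 CPM in Batf3 non-stimulated cells and 184, 186 and 192 CPM in control non-stimulated cells, with a log2 difference of −0.32 ± 0.04 (adjusted p = 6.30e-14). For both genes the libraries of the 2 vectors were fully separate. Egr2 had 9.37, 10.2 and 8.01 CPM in Batf3 non-stimulated cells and 12.02, 11.1 and 11.4 CPM in control non-stimulated cells. Its log2 difference was −0.33 ± 0.10 (95% interval −0.52 to −0.13, adjusted p = 0.0021). That call rested on the lowest Batf3 library: without Batf3 non-stimulated replicate 3 the log2 difference was −0.24 (adjusted p = 0.0588, with a range of 0.000719 to 0.0588 over its alternatives).

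Nab2 had 16.4, 13.7 and 15.2 CPM in Batf3 non-stimulated cells and 19.2, 22.9 and 21.4 CPM in control non-stimulated cells, without overlap (log2 difference −0.49 ± 0.08, adjusted p = 3.44e-07). Nr4a3 had 11.3, 10.8 and 11.8 CPM in Batf3 non-stimulated cells and 13.9, 14.7 and 16.3 CPM in control non-stimulated cells. These libraries were again separate, with a log2 difference of −0.41 ± 0.09 (adjusted p = 7.25e-06). Nr4a1 had 26.3, 26.3 and 27.3 CPM in Batf3 non-stimulated cells and 26.5, 27.8 and 28.4 CPM in control non-stimulated cells, which overlapped (interval −0.18 to 0.09, adjusted p = 0.553). Nr4a2 was the lowest of the 7, at 7.27, 6.67 and 6.79 CPM in Batf3 non-stimulated cells and 5.78, 6.37 and 6.36 CPM in control non-stimulated cells. Its libraries did not overlap, but the log2 difference of 0.16 ± 0.12 was not called (interval −0.08 to 0.41, adjusted p = 0.279).

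The myeloid and dendritic lists were also higher with Batf3 in these cultures, at 14.03 to 14.8 CPM and 31.9 to 34.1 CPM in Batf3 non-stimulated cells, against 8.29 to 9.94 CPM and 24.6 to 26.1 CPM in control non-stimulated cells. Within the dendritic list Itgax (15.7 and 8.31 CPM) and Xcr1 (11.1 and 9.13 CPM) were higher with Batf3, and Zbtb46 (5.89 and 7.19 CPM) was lower. The B cell list summed to 391 to 409.8 CPM in Batf3 non-stimulated and 359 to 373 CPM in control non-stimulated cells. The CD4 T cell list summed to 23.1 to 24.99 CPM in Batf3 non-stimulated and 13.1 to 15.8 CPM in control non-stimulated cells. The NK cell list had a lower sum, at 1.92 to 3.59 CPM in Batf3 non-stimulated and 3.65 to 5.78 CPM in control non-stimulated cells. Within it Klrb1c (0.789 and 3.03 CPM) was lower with Batf3, while Klre1 (2.07 and 1.61 CPM) averaged more. The part of these lists was not tested. The split of called genes depended on the scaling in both vector comparisons. In stimulated cultures 50.3% of called genes were higher with TMM factors and 65.6% with library sizes alone, and in non-stimulated cultures 41.5% and 60.1%. The calls and directions of the members were the same with either scaling in both cultures, apart from the sign of differences that were not called (Nab2 in stimulated and Nr4a1 in non-stimulated cells).

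Stimulation raised all 7 genes at least 2-fold with either vector. They were selected as targets of receptor signals, so the rise itself is a description, and the same libraries entered the comparisons of the vectors. The background was 82.7% of genes called in Batf3 cells, with 41.2% higher, 41.4% lower and 18.8% at least 2-fold higher. In control cells it was 80.3%, with 39.6% higher, 40.7% lower and 17% at least 2-fold higher. The order of the folds differed from the order of the levels: Nr4a3 and Egr2, near the bottom per length in non-stimulated cells, had the largest folds, and Egr1, the most abundant per length in every group, had one of the smallest.

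In Batf3 cells Nr4a3 was 56.2-fold higher after stimulation (log2 5.81 ± 0.07), at 635 ± 6.80 CPM in Batf3 stimulated and 11.3 ± 0.514 CPM in Batf3 non-stimulated cells. In control cells it was 44.1-fold higher (log2 5.46 ± 0.06), at 660.0 ± 8.24 CPM in control stimulated and 15.0 ± 1.23 CPM in control non-stimulated cells. Its rank among all tested genes by this change was 113 in Batf3 cells and 141 in control cells. Egr2 was 55.01-fold higher in Batf3 cells (log2 5.78 ± 0.08) and 26.4-fold higher in control cells (log2 4.72 ± 0.07), with ranks of 114 and 201. Nr4a2 was 21.3-fold higher in Batf3 cells and 21.4-fold higher in control cells, and Nr4a1 was 11.6-fold higher in each. These NR4A folds thus hardly differed by vector.

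Egr3 was 9.37-fold higher after stimulation in Batf3 cells (log2 3.23 ± 0.06) and 7.49-fold higher in control cells (log2 2.90 ± 0.06). Egr1 was 6.30-fold higher in Batf3 cells (log2 2.66 ± 0.04) and 4.19-fold higher in control cells (log2 2.07 ± 0.04). Nab2 was 6.22-fold higher in Batf3 cells (log2 2.64 ± 0.07) and 4.51-fold higher in control cells (log2 2.17 ± 0.06). The largest adjusted p of the 14 values was 1.77e-41. With library sizes alone the median of all genes shifted by −0.21 in Batf3 cells and −0.19 in control cells, small against the members' changes. The B cell list, nearly all of it Ighm, moved the other way. It summed to 38.1 to 42.3 CPM in Batf3 stimulated and 391 to 409.8 CPM in Batf3 non-stimulated cells, and to 49.5 to 53.8 CPM in control stimulated and 359 to 373 CPM in control non-stimulated cells. Of its 6 genes, 1 reached 1 CPM in each stimulated group and 2 in each non-stimulated group, and its part was not tested. The CD4 T cell and dendritic cell lists were higher after stimulation, as the members were. In Batf3 cells the CD4 list summed to 64.8 to 67.7 CPM in stimulated and 23.1 to 24.99 CPM in non-stimulated cultures, and in control cells to 24.5 to 27.0 CPM and 13.1 to 15.8 CPM. Its rise lay in Cd40lg, while Zbtb7b averaged less after stimulation with either vector and Cd4 stayed below 1 CPM in every group. The dendritic list summed to 60.0 to 64.0 CPM in Batf3 stimulated and 31.9 to 34.1 CPM in Batf3 non-stimulated cells, and to 35.8 to 41.1 CPM in control stimulated and 24.6 to 26.1 CPM in control non-stimulated cells. With either vector Itgax and Zbtb46 of this list averaged more after stimulation and Xcr1 averaged less. The part of these lists in the members' rise was not tested either.

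The difference between the vectors' responses was tested as an interaction, the Batf3 effect in stimulated cells minus that in non-stimulated cells. It was positive for 5 of 7 members and negative for none, against a background of 20.7% of genes called, 14.6% higher and 6.08% lower. Egr2 alone among the members passed 2-fold, as 0.828% of genes did upward. For Egr2 it was 1.06 ± 0.11 on the log2 scale (95% interval 0.85 to 1.27, adjusted p = 4.47e-15), a 2.08-fold larger response in Batf3 cells, and 2.33% of tested genes had a larger value. For Egr1 it was 0.59 ± 0.05 (adjusted p = 3.56e-19), or 1.505-fold. For Nab2 it was 0.46 ± 0.09 (adjusted p = 6.18e-05), for Nr4a3 0.35 ± 0.10 (adjusted p = 0.000375) and for Egr3 0.32 ± 0.09 (adjusted p = 0.000855).

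The 5 genes reached this by different routes. Egr1 and Egr2 were higher with Batf3 in stimulated cells and lower in non-stimulated cells. Nab2 and Nr4a3 were lower with Batf3 in non-stimulated cells and not called in stimulated cells. Egr3 was lower with Batf3 in both cultures, by more in the non-stimulated cells. For Nr4a1 the interaction was 0.00 ± 0.08 with an interval of −0.15 to 0.15 (adjusted p = 1.00), and for Nr4a2 it was 0.00 ± 0.13 with an interval of −0.27 to 0.26 (adjusted p = 0.991).

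**Figure D3:**
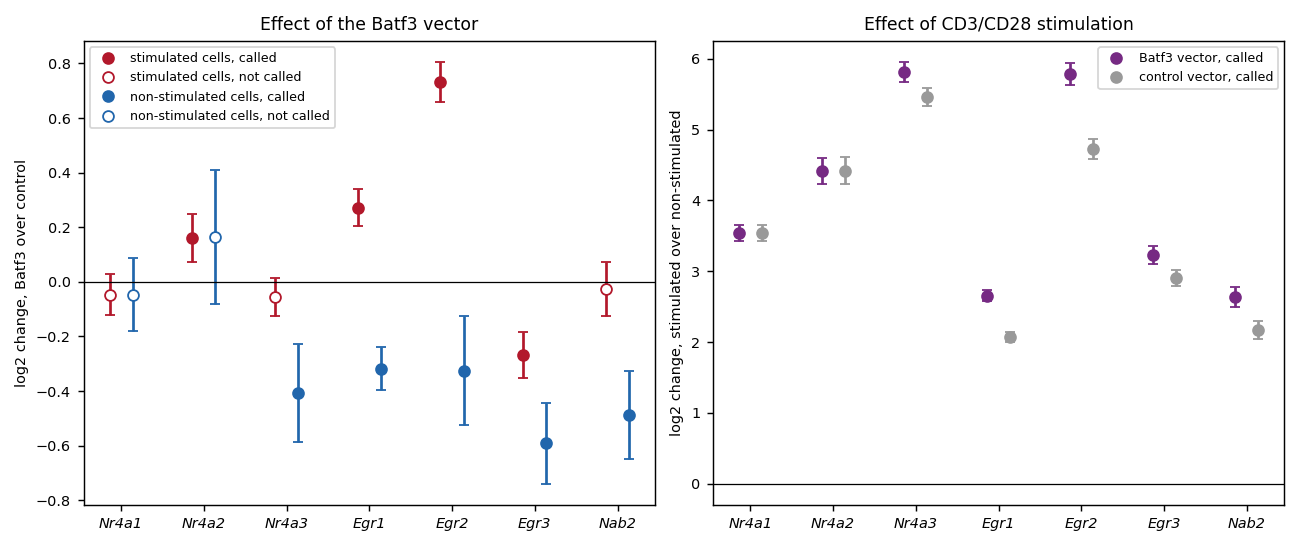
Log2 difference of each of the 7 genes with its 95% interval, for the vector effect in each culture and the stimulation effect with each vector. Filled points passed an adjusted p of 0.05 and open points did not. The interaction is not drawn. Egr1 and Egr2 lie above 0 in stimulated and below 0 in non-stimulated cells for the vector effect, and Nr4a1 lies near 0 in both.

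Levels per kilobase of exon were used to compare the genes with each other. Among Batf3 stimulated cells Egr1 was highest at 211 ± 2.99 CPM per kb, followed by Egr2 at 149 ± 2.29, Nr4a3 at 106 ± 1.14 and Nr4a1 at 88.4 ± 2.32 CPM per kb. Egr3 at 36.6 ± 1.39 and Nr4a2 at 36.3 ± 1.58 CPM per kb did not differ beyond their spread, and Nab2 was lowest at 31.9 ± 0.672 CPM per kb. In control stimulated cells Egr1 led at 175 ± 1.48 CPM per kb, but Nr4a3 at 110.2 ± 1.38 and Nr4a1 at 91.3 ± 1.04 CPM per kb stood before Egr2 at 89.6 ± 0.875. The levels of Nr4a1 and Egr2 overlapped there. Egr3 followed at 44.005 ± 0.905 CPM per kb, and Nab2 at 32.5 ± 1.10 and Nr4a2 at 32.5 ± 0.791 CPM per kb were not separate. Thus Egr2 stood second with Batf3 and shared the third place with the control vector.

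Without stimulation Egr1 was again the most abundant, at 33.5 ± 0.961 CPM per kb in Batf3 and 41.7 ± 0.923 in control non-stimulated cells. Nr4a1 came next at 7.60 ± 0.160 CPM per kb in Batf3 and 7.85 ± 0.270 in control non-stimulated cells, and Nab2 had 5.13 ± 0.455 and 7.20 ± 0.640 CPM per kb in the same groups. Nr4a1 and Nab2 overlapped in the control cells and not in the Batf3 cells. Egr3 had 3.90 ± 0.242 CPM per kb in Batf3 and 5.88 ± 0.203 in control non-stimulated cells, and Egr2 had 2.705 ± 0.324 and 3.39 ± 0.134. The last places were held by Nr4a3, with 1.88 ± 0.0858 in Batf3 and 2.50 ± 0.205 in control non-stimulated cells, and Nr4a2, with 1.70 ± 0.0781 and 1.52 ± 0.0830 CPM per kb.

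The makeup of the EGR family differed with the vector in both cultures, by more percentage points after stimulation. Of the summed EGR level per length, Egr2 made up 37.6 ± 0.336% in Batf3 stimulated and 29.1 ± 0.105% in control stimulated cells. Egr3 made up 9.22 ± 0.211% in Batf3 stimulated and 14.3 ± 0.295% in control stimulated cells, and Egr1 53.2 ± 0.283% and 56.7 ± 0.196%. No library of one vector fell in the range of the other for any of these shares. In non-stimulated cells Egr1 made up 83.5 ± 0.659% in Batf3 and 81.8 ± 0.749% in control cells, and Egr3 made up 9.73 ± 0.315% and 11.5 ± 0.448% in the same groups. The libraries of the 2 vectors were separate for both of these shares. Egr2 made up 6.74 ± 0.653% in Batf3 and 6.65 ± 0.301% in control non-stimulated cells, which overlapped. The summed EGR level was 396 ± 6.08 CPM per kb in Batf3 stimulated, 308 ± 2.32 in control stimulated, 40.1 ± 1.42 in Batf3 non-stimulated and 51.0 ± 0.830 in control non-stimulated cells.

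The shares of Nr4a1 and Nr4a3 in the NR4A family differed more with stimulation than with the vector, while that of Nr4a2 differed more with the vector. Nr4a3 made up 46.0 ± 0.532% of the summed NR4A level in Batf3 stimulated and 16.8 ± 0.407% in Batf3 non-stimulated cells, and 47.1 ± 0.409% in control stimulated and 21.04 ± 0.838% in control non-stimulated cells. Nr4a1 made up 38.3 ± 0.222% in Batf3 stimulated and 67.9 ± 0.740% in Batf3 non-stimulated cells, and 39.0 ± 0.197% in control stimulated and 66.2 ± 0.778% in control non-stimulated cells. Thus the leading NR4A transcript was Nr4a3 after stimulation and Nr4a1 without it. Nr4a2 made up 15.7 ± 0.349% in Batf3 stimulated and 13.9 ± 0.397% in control stimulated cells, and 15.2 ± 0.710% in Batf3 non-stimulated and 12.8 ± 0.287% in control non-stimulated cells. Its share was separate between the vectors in both cultures. The summed NR4A level was 231 ± 4.98 CPM per kb in Batf3 stimulated, 234 ± 1.60 in control stimulated, 11.2 ± 0.239 in Batf3 non-stimulated and 11.9 ± 0.541 in control non-stimulated cells. Relative to their corepressor, the summed EGR transcripts per Nab2 transcript were 12.4 ± 0.184 in Batf3 stimulated, 9.49 ± 0.385 in control stimulated, 7.84 ± 0.709 in Batf3 non-stimulated and 7.12 ± 0.640 in control non-stimulated cells. This ratio was separate between the vectors after stimulation, and the ranges of 7.41 to 8.66 with Batf3 and 6.47 to 7.75 with control overlapped without it.

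**Figure D4:**
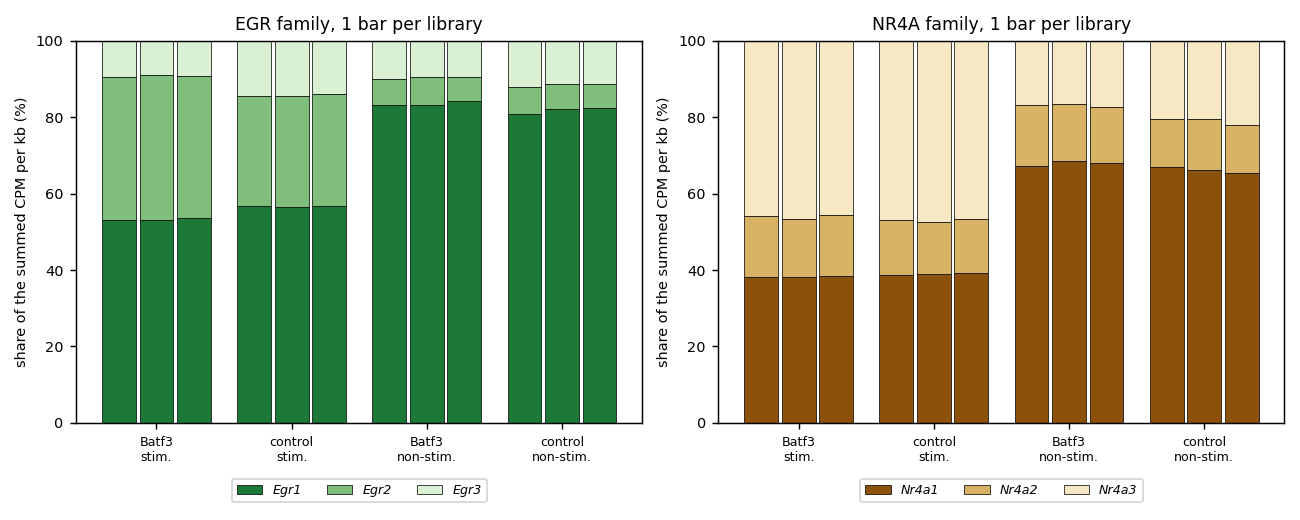
Share of each gene in the summed level per kilobase of its family, in percent, with a bar for each library. The EGR genes and the NR4A genes are shown in the 4 groups of 3 libraries each. As group means, Egr2 holds 37.6% of the EGR sum in Batf3 stimulated and 29.1% in control stimulated cells. Nr4a3 holds 46.0% and 47.1% of the NR4A sum as means of the same groups.

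Several annotated features were shared by some members. The 3 EGR genes and Nab2 are short: Egr1 spans 5162 bp on chromosome 18, Egr3 5412 bp (chr14:70077203-70082614, plus strand), Egr2 6714 bp (chr10:67535475-67542188, plus strand) and Nab2 7651 bp (chr10:127660918-127668568, minus strand) in GRCm38. The median span of the 12006 tested coding genes was 22577.5 bp, and between 12.3 and 19.3% of those genes were shorter than these 4. The NR4A genes were longer, with 20527 bp for Nr4a1 (chr15:101254269-101274795, plus strand), 17174 bp for Nr4a2 (chr2:57106830-57124003, minus strand) and 41295 bp for Nr4a3 (chr4:48045153-48086447, plus strand), and 46.9, 41.1 and 69.2% of coding genes were shorter than Nr4a1, Nr4a2 and Nr4a3 in that order. All 7 had ATTTA, the core of AU-rich elements of short-lived transcripts, in the 3′ UTR, with 7 matches in Egr3, 5 in Nr4a3, 3 each in Nr4a1, Nr4a2, Egr2 and Nab2 and 2 in Egr1, against a median of 1 for coding genes. A median of 1 means that ATTTA was common among coding genes as well. Per kilobase of 3′ UTR the densities ran from 1.62 in Nr4a3 to 5.52 in Nr4a1, against a median of 1.29. Of coding genes, 57.1% had a lower density than Nr4a3, 57.7% than Egr1 and 94.9% than Nr4a1. The longer TATTTAT occurred in Nr4a2, Nr4a3 and Nab2 and not in Nr4a1, Egr1, Egr2 or Egr3, against 26.4% of coding genes. The exons of Nab2 overlap those of Stat6 by 40 bp, Nemp1 by 151 bp and the antisense gene Gm16229 by 1050 bp, all on the opposite strand. The strand setting of the counting is not given in the sources used here, so reads there may not be told apart. Gm16229 had 0 to 2 counts per library. Stat6 averaged 276 and 298 CPM in Batf3 and control stimulated cells and 153 and 162 CPM in Batf3 and control non-stimulated cells. Nemp1 averaged 39.2, 31.2, 33.4 and 29.3 CPM in the same order. Both stood above Nab2 in non-stimulated cells, which had 15.1 CPM with Batf3 and 21.2 CPM with control. Their part in the Nab2 counts was not tested.

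Related genes moved in several ways. Of 5 relatives and partners of the members, 4 were tested, and 2 rose and 2 fell with Batf3 after stimulation, while 1 rose and none fell without it (background 14.8% higher and 14.6% lower after stimulation, 16.3% and 23% without it). Rxra, the retinoid X receptor that pairs with NR4A1 and NR4A2, averaged 226 ± 4.75 CPM in Batf3 stimulated and 109.8 ± 1.82 CPM in control stimulated cells (log2 difference 1.04 ± 0.04, adjusted p = 1.13e-32). In non-stimulated cells it averaged 69.7 ± 2.64 CPM with Batf3 and 26.6 ± 0.737 CPM with control (log2 difference 1.39 ± 0.06, adjusted p = 2.19e-32). Nab1, the other NAB corepressor, was higher with Batf3 after stimulation, at 113 ± 5.01 CPM in Batf3 and 92.5 ± 1.94 CPM in control cells (log2 difference 0.29 ± 0.05, adjusted p = 5.22e-08). Egr4 was lower, at 23.2 ± 2.37 CPM in Batf3 stimulated and 28.2 ± 0.530 CPM in control stimulated cells (log2 difference −0.28 ± 0.08, adjusted p = 0.00777). Its call was lost without Batf3 stimulated replicate 1, where the log2 difference was −0.20 (adjusted p = 0.0928, with a range of 0.00246 to 0.0928 over its alternatives). The other relative that fell was Rxrb (log2 difference −0.19 ± 0.06, adjusted p = 0.0102). Its call was lost with library sizes alone (−0.14, adjusted p = 0.0631) and without control stimulated replicate 3 (−0.16, adjusted p = 0.0602), with a range of 0.00153 to 0.0631 over its alternatives.

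Of 15 factors known to act on NR4A and EGR genes, 14 were tested, and 4 rose and 2 fell with Batf3 after stimulation, with a median log2 difference of 0.01 against 0.00 for all genes. Without stimulation 4 rose and 1 fell, with a median of 0.04 against −0.02 for all genes. The shares over all genes were 14.8% higher and 14.6% lower after stimulation and 16.3% and 23% without it. Among the 4 that rose after stimulation, Nfatc1 was at the threshold (log2 difference 0.08, adjusted p = 0.0345), and its call was lost in 11 of 19 alternatives, DESeq2 among them (adjusted p = 0.132), with a range of 0.000535 to 0.428 over all of them. Nfatc2, a calcineurin-dependent factor, averaged 129 ± 6.24 CPM in Batf3 stimulated and 72.2 ± 3.93 CPM in control stimulated cells (log2 difference 0.84 ± 0.05), and 195 ± 5.20 CPM in Batf3 and 145 ± 5.71 CPM in control non-stimulated cells (0.43 ± 0.04). Srf, the factor that binds CArG boxes, was not called after stimulation (−0.10) and was lower with Batf3 without it (−0.23 ± 0.05). Of these 14 factors, 9 fell on stimulation with either vector and 4 rose, against 41.4% of all genes lower and 41.2% higher in Batf3 cells and 40.7% and 39.6% in control cells.

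Of 30 other early genes of T cell receptor stimulation, 10 were higher and 11 lower with Batf3 after stimulation (median log2 difference −0.01), and 7 were higher and 11 lower without it (median −0.14). Over all genes 14.8% were higher and 14.6% lower after stimulation (median 0.00), and 16.3% higher and 23% lower without it (median −0.02). Spry1, a feedback inhibitor of ERK signalling, was among the 11 lower after stimulation (−0.14, adjusted p = 0.00604), and its call was lost with library sizes alone and without Batf3 stimulated replicate 1 (adjusted p from 0.000652 to 0.0826 over its alternatives). By comparison, the median of the 7 members was −0.03 after stimulation and −0.33 without it. Stimulation raised 25 of the 30 in Batf3 cells and 24 in control cells, against 41.2% and 39.6% of all genes. Jun, an AP-1 subunit that dimerises with BATF3, was higher with Batf3 after stimulation, at 149 ± 2.96 CPM in Batf3 stimulated and 89.96 ± 3.81 CPM in control stimulated cells (log2 difference 0.72 ± 0.05). In non-stimulated cells Jun had 101 ± 6.26 CPM with Batf3 and 108 ± 3.75 CPM with control, which was not called (−0.10, adjusted p = 0.0599). It was called lower in 3 of 19 alternatives, each without a single library (adjusted p from 0.00585 to 0.735 over all of them). Tnfaip3, which encodes the NF-κB inhibitor A20, was higher with Batf3 in both cultures (0.24 and 0.44), and Dusp6, an ERK phosphatase, was lower with Batf3 after stimulation (−0.32) and higher without it (0.19).

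Of 20 genes linked to EGR2 and EGR3 in anergy and feedback, 6 were higher and 9 lower with Batf3 after stimulation (median log2 difference −0.11), and 5 were higher and 8 lower without it (median −0.08). The shares over all genes were again 14.8% and 14.6% after stimulation and 16.3% and 23% without it, with medians of 0.00 and −0.02. Nt5e, the ectoenzyme CD73, averaged 47.8 CPM in Batf3 stimulated and 22.4 CPM in control stimulated cells (log2 difference 1.09 ± 0.07). The chemokine Ccl1 averaged 2950 CPM in Batf3 stimulated and 3708 CPM in control stimulated cells (−0.33). It was also among the 8 lower without stimulation (−0.80 ± 0.26, adjusted p = 0.00478), a call lost without Batf3 non-stimulated replicate 3 (adjusted p from 0.00429 to 0.0516 over its alternatives). Of 14 genes linked to NR4A in dysfunction and tolerance, 8 were higher and 3 lower with Batf3 after stimulation (median 0.50), and 7 were higher and 2 lower without it (median 0.37), against all-gene medians of 0.00 and −0.02 and the same all-gene shares. Among those that averaged 1 CPM or more, Ctla4 (4.91 ± 0.09) and Foxp3 (2.34 ± 0.27) rose most after stimulation. Without it Foxp3 (4.23 ± 0.32) and Runx1 (1.69 ± 0.16) rose most. Tox, a factor of exhausted T cells, was called higher after stimulation (1.55 ± 0.43) at low levels of 1.51 ± 0.500 CPM in Batf3 and 0.508 ± 0.116 CPM in control cells. Havcr2, which encodes TIM-3, was lower with Batf3 after stimulation, at 219 CPM in Batf3 and 257 CPM in control cells (−0.23). It was also 1 of the 2 lower without stimulation (−0.37 ± 0.15, adjusted p = 0.032), but that call was lost in 12 of 19 alternatives (adjusted p from 0.0185 to 0.174). Klf2, a quiescence factor, was among the 8 higher after stimulation (0.38, adjusted p = 0.00567), a call lost without control stimulated replicate 2 (adjusted p from 0.00172 to 0.0910 over its alternatives).

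**Figure D5:**
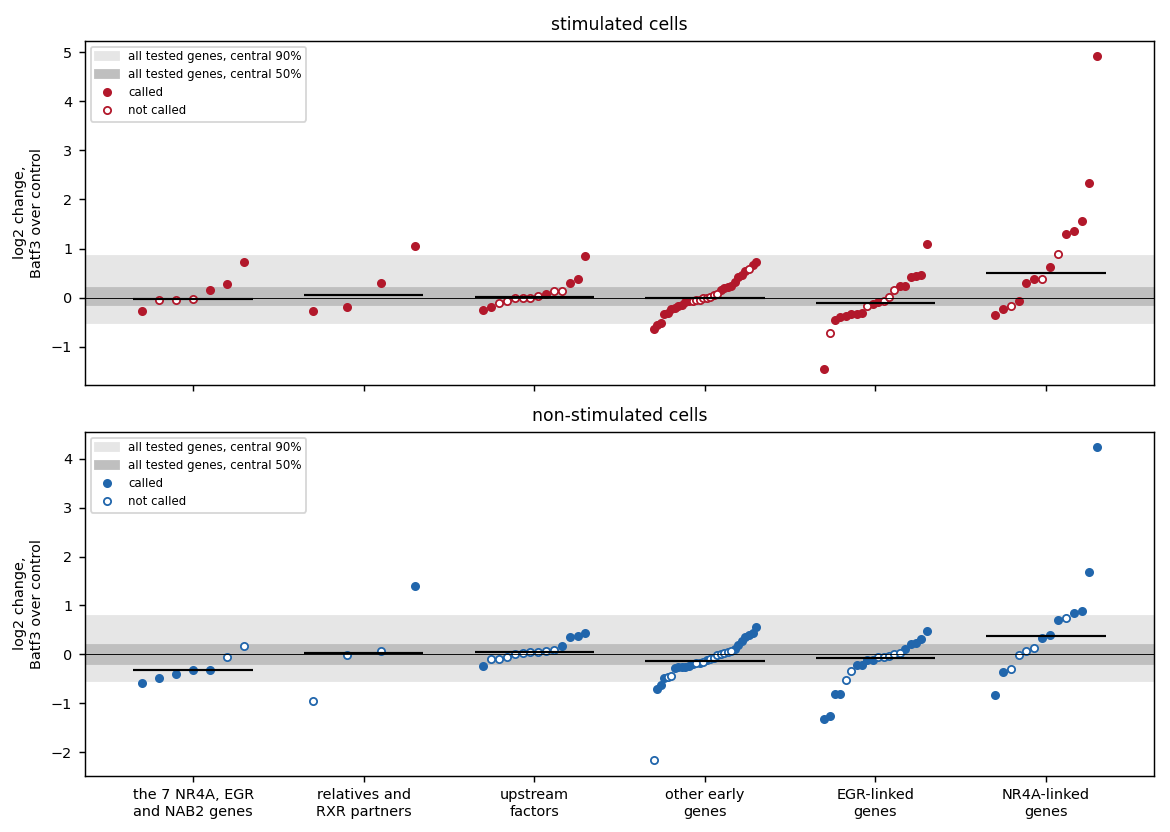
Log2 difference of Batf3 over control for every tested gene of 6 lists in stimulated and non-stimulated cells, with a black bar at the list median and grey bands for the central 50% and 90% of all tested genes. The list linked to NR4A has medians of 0.50 and 0.37, and the 7 members have medians of −0.03 and −0.33.

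The genes with the most similar pattern were found by the root mean square difference of centred log2(CPM + 1) values over the 12 libraries, among 8991 candidates. Closest to Nr4a1 were Ksr1 at 0.0830, Dnmt3a at 0.0839 and Ahr at 0.0843 log2 units. Those closest to Nr4a2 were Rgs1 at 0.0990, Rel at 0.154 and Shisa3 at 0.155. Nr4a3 was followed most closely by Havcr2 at 0.0897, Plxnd1 at 0.110 and Serpinb6b at 0.145. No candidate came as near to Egr2 as to the other members, with Fam83g at 0.186, Siglecf at 0.203 and Cd200 at 0.207. For Egr1 they were Golim4 at 0.0723, Btg3 at 0.0734 and Smim3 at 0.0774, for Egr3 Srm at 0.112, Smyd5 at 0.118 and Ppan at 0.119, and for Nab2 Ipo4 at 0.0721, Hspa9 at 0.0740 and Ipo5 at 0.0790. Among the members themselves, Egr1 and Nab2 were the closest pair at 0.136 and Nr4a3 and Nab2 the farthest at 1.60, and the pair of Nr4a3 and Egr2 stood at 0.362. The 12 libraries come from 4 groups, so these distances are mostly set by the 4 group levels. Shisa3 averaged 0.235 CPM in Batf3 and 0.0443 CPM in control non-stimulated cells, and Siglecf 0.192 and 0.111 CPM. Cd200 had 0.640 and 0.818 CPM in the same groups. At such levels the 1 added in log2(CPM + 1) shrinks differences, so a small distance need not mean a similar fold.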

How the data were processed

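RNA-seq libraries of OT-I CD8 T cells, 3 technical replicates in each of 4 groups, were analysed from the deposited table of whole-number read counts per Ensembl gene. Per the submitters' processing notes, the authors aligned reads to GRCm38 with STAR 2.7 and made the counts with featureCounts; per the labels' protocols, libraries were polyadenylated and stranded. Not given in the sources used are the annotation release, strand setting and treatment of reads with several alignments. All 12 columns matched a sample. Genes were filtered with filterByExpr and fitted over all 12 libraries with 4 group means and TMM factors in edgeR 4.0.16 (R 4.3.3), by the robust quasi-likelihood test. Tests were two-sided, with Benjamini-Hochberg adjustment over 15702 genes and calls at an adjusted p under 0.05. Log2 differences are given ± SE with 95% intervals, and CPM without a pseudocount as mean ± SD. The SE and intervals were computed apart from the test, with a lower bound on the variance. Intervals and p-values therefore need not match. Levels per kilobase use exon unions of GENCODE M21 (GRCm38), which held 55154 of the 55335 identifiers. PCR duplicates were not identified, so precision covers counting and technical spread. Within groups, the 12 pairs of replicates differed by more than sampling noise (chi-square per degree of freedom 1.46 to 3.16), so all were kept.

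All 7 members were named throughout. From each other list and comparison, the rule took up to 2 called genes in each direction that changed most and reached 1 CPM on average in the group where they were higher, and some of those are given. A gene named for 1 comparison is also given in others. The 3 most similar genes were sought among genes that averaged 10 CPM or more in their highest group. Members and lists were chosen with earlier results of these data known. Alternatives were size factors of RLE, library sizes alone, no filter, a filter at 1 CPM in 3 libraries, DESeq2 1.42.0, only the compared groups, a replicate block and leaving out each library. The fitting steps were tested on simulated counts.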

Additional observations from a re-analysis of the deposited data

Results flagged for a closer look

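For the genes listed here, the Batf3 effect differed between the cultures by the test of the difference itself (edgeR quasi-likelihood, adjusted over all genes). The list does not cover every gene named above. The values are log2 differences, Batf3 effect in stimulated minus Batf3 effect in non-stimulated cells, with n = 3 libraries a group. Among the members they were 1.06 for Egr2 (adjusted p = 4.47e-15), 0.59 for Egr1 (adjusted p = 3.56e-19), 0.46 for Nab2 (adjusted p = 6.18e-05), 0.35 for Nr4a3 (adjusted p = 0.000375) and 0.32 for Egr3 (adjusted p = 0.000855). Among relatives and upstream factors they were 0.22 for Nab1 (adjusted p = 0.00343), −0.34 for Rxra (adjusted p = 2.02e-05), 0.41 for Nfatc2 (adjusted p = 4.98e-08), −0.36 for Nfatc3 (adjusted p = 1.33e-07) and 0.26 for Creb1 (adjusted p = 0.0043). Among early genes they were 0.82 for Jun (adjusted p = 1.28e-17), −0.59 for Dusp5 (adjusted p = 5.07e-15), −0.51 for Dusp6 (adjusted p = 2.33e-08), −0.47 for Ier3 (adjusted p = 0.000569) and −0.20 for Tnfaip3 (adjusted p = 0.00018). Among genes linked to EGR or NR4A factors they were 0.77 for Nt5e (adjusted p = 3.75e-13), 1.01 for Crtam (adjusted p = 2.45e-12), 1.86 for Tox (adjusted p = 0.0053) and −0.32 for Klf2 (adjusted p = 0.0445). In that last set they were also 4.03 for Ctla4 (adjusted p = 1.74e-48) and −1.90 for Foxp3 (adjusted p = 0.000282). No alternatives are given for Ctla4 and Foxp3. The calls of Nab1, Creb1 and Klf2 were lost when single libraries were left out, with adjusted p up to 0.0733, 0.0698 and 0.172.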

How the results depend on the processing

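Of 658 values for the 35 member results under the alternatives, 656 kept their direction and their side of the threshold or were not called under either setting. The exceptions were Nr4a3 without the filter on low counts, which made 2 members lower with Batf3 in stimulated cells in place of 1, and Egr2 in non-stimulated cells without Batf3 non-stimulated replicate 3. Leaving out single libraries thus gave 4 to 5 members lower in non-stimulated cells. With library sizes alone, 2397 genes were lower with Batf3 in non-stimulated cells, against 3615, and the stimulation effects of Nab1 and Elk3 in Batf3 cells became −0.0356 and −0.0296 and that of Dusp6 in control cells −0.0158, none of them called. Without the filter, 1524 genes had a positive interaction, against 2296, and 1565 to 2263 when single libraries were left out. The number of genes tested was 32686 without the filter and 15702 with it, and the cause of the other shifts was not tested. Same-numbered libraries did not deviate together (12 correlations of −0.0484 to 0.0332, none above 0.1). Whether the numbers pair the samples is not stated by the labels, and absent correlation cannot decide it. A fit with the replicate number as a block gave 1.06 for the Egr2 interaction, against 1.06 without it, and changed no call of a member. The lowest levels among the members were those of Nr4a2 in non-stimulated cells, at a mean of 6.91 CPM in Batf3 and 6.17 CPM in control cells; whether depth limited its call was not tested.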
